A study of Mus musculus and Homo sapiens with 14 samples.

Results

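Foxp3, Ikzf2, Ikzf4, Gpr83, Lrrc32, Tnfrsf18, Il10, Nrp1 and Itgae are genes by which regulatory T cells are commonly recognised. All 9 were found by symbol among the 50559 gene entries of an EL4 tumour count table and among the 55969 entries of an EG7-OVA count table. Bulk RNA sequencing gave 2 libraries per group. EL4 is a mouse T-cell lymphoma line, and its tumours formed the groups P3 and P0, both of WT genotype; the labels used here do not define P3 and P0, and give neither the host nor the age of the animals. EG7-OVA is a derivative of EL4 that expresses ovalbumin, also labelled WT, and was given azacytidine (AZA) at 1.5 µM, decitabine (DAC) at 0.2 µM or the solvent DMSO at 0, 24 and 48 h and harvested at 72 h. Each line is a single lymphoma line, and nothing in the labels says that libraries of a group came from separate animals or cultures, so p-values measure only the spread between these libraries, which may be technical.

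Regulatory T cells restrain immune responses. Their defining transcription factor FOXP3 works with the Ikaros-family zinc finger proteins Helios (Ikzf2) and Eos (Ikzf4). On their surface GARP (Lrrc32) anchors latent TGF-beta, GITR (Tnfrsf18) receives a costimulatory signal of the TNF family, and neuropilin-1 (Nrp1) binds semaphorins and vascular endothelial growth factor. CD103 (Itgae) pairs with the beta-7 integrin to bind E-cadherin, GPR83 is a neuropeptide receptor, and interleukin-10 (Il10) is a suppressive cytokine. None of these genes is exclusive to regulatory T cells: Lrrc32 is also known from platelets and endothelium, Nrp1 from endothelium and dendritic cells, and Il10 from macrophages and B cells. Azacytidine and decitabine, the ribonucleoside and the deoxyribonucleoside of the same base, trap DNA methyltransferases, and methylation of CG dinucleotides is known to restrain transcription at several of these loci, Foxp3 among them.

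Stretches of 250 bases upstream of annotated starts are printed for 3 of the 4 members that RefSeq's promoter table (GRCm38.p6) holds. CG dinucleotides are the sites on which these drugs act. The 3 were picked after their values were seen: Foxp3 and Gpr83 fell in P3 tumours and Tnfrsf18 did not pass the test there. In the main fit none of the 3 passed with either drug against DMSO. Whether CG counts bear on any of these results was not tested. Capitals mark each CG, and all lie on the plus strand. The Foxp3 stretch, the more upstream of 2 listed starts, is chrX:7579426-7579675, the Gpr83 stretch is chr9:14859960-14860209 and the Tnfrsf18 stretch is chr4:156026072-156026321.
Foxp3: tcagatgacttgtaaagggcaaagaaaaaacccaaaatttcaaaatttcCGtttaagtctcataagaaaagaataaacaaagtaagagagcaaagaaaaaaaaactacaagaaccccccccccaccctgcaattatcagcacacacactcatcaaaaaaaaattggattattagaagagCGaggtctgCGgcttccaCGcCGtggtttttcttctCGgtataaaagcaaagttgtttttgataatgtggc
Gpr83: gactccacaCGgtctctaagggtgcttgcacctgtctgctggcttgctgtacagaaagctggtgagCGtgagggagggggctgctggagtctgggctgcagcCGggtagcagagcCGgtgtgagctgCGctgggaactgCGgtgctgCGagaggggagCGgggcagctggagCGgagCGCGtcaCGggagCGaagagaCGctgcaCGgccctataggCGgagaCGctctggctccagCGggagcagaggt
Tnfrsf18: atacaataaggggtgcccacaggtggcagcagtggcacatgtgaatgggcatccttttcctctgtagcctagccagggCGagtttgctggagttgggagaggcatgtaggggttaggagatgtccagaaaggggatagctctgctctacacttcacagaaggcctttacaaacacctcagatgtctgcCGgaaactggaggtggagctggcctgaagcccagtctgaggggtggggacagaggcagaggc
The Gpr83 stretch held 18 CG, more than 78.3% of the 32851 mouse windows of this length, and 66.8% of its bases were G or C. The Foxp3 stretch held 6 CG, equal to the median window, and 37.6% G or C. Tnfrsf18 had 2 CG, and 18.8% of windows had fewer. The second Foxp3 window (chrX:7580233-7580482) held 7 CG and that of Nrp1 11 CG. On both strands, the STAT-type motif TTCNNNGAA occurred once in the Tnfrsf18 window and once in the second Foxp3 window, and 7.02% of all windows held it; the forkhead motif TGTTTAC and the Runt motif TGTGGT, held by 3.17% and 14.0% of windows, were in none of the 5 windows. A TTCNNNGAA match may itself hold a CG. Methylation was not measured in these data, and Ikzf2, Ikzf4, Lrrc32, Il10 and Itgae had no entry in that table.

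The libraries held 21621580 and 22899073 counts in P3 and 21926990 and 25328708 in P0, and 15690747 to 21048979 in EG7-OVA. Levels are CPM, reads of a gene scaled to a common library size after TMM normalisation, and a gene passed the test at an adjusted p under 0.05 in edgeR's quasi-likelihood test with Benjamini-Hochberg adjustment over all genes tested. Log levels of all tested genes correlated at 0.969 between the DMSO libraries and at 0.97 between the P3 libraries. The values were 0.991 for P0, 0.976 for azacytidine and 0.978 for decitabine. At some genes the DMSO libraries stood far apart. Satb1, a chromatin organiser of T cells, had 0 CPM in DMSO library 1 and 80.2 CPM in DMSO library 2, Cd4 had 1.86 and 41.4 CPM, and a list of B cell markers summed to 4.27 and 49.6 CPM. Results against DMSO are therefore also given without each of these libraries. T cell markers summed to 1547 to 2647 CPM in all 10 libraries.

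In P3 tumours Foxp3, Ikzf2, Ikzf4 and Gpr83 were lower than in P0 tumours, no member was higher, and Lrrc32, Tnfrsf18, Nrp1 and Itgae did not pass the test. Over all 19993 genes tested 38.7% were called, 19.9% as lower and 18.8% as higher, so the members' 4 of 8 calls stand against a broad background. The median log2 fold change was -0.95 over the 8 tested members and 0.00 over all genes. In bulk samples, fewer cells of a type and less RNA per cell cannot be told apart.

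Of the transcription factors, Foxp3 had 2.08 and 2.19 CPM (47 and 50 reads) in P3 tumours, against 7.0 and 7.27 CPM (148 and 183 reads) in P0 tumours. The groups were well separated, with a log2 fold change of -1.74 ± 0.23 (SE, adjusted p = 0.00479). Ikzf4, whose product Eos is a corepressor of FOXP3, had 0.221 and 0.789 CPM in P3 and 5.11 and 4.25 CPM in P0. That is 5 and 18 reads in P3 against 108 and 107 in P0, a log2 fold change of -3.20 ± 0.55 (adjusted p = 0.00962). Ikzf2 had 247 and 239 CPM in P3 and 427 and 442 CPM in P0, the most reads of any member. Its fall was the smallest of the 4 called members, at -0.84 ± 0.10 on the log2 scale (adjusted p = 0.00343).

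Among the surface proteins, the receptor gene Gpr83 had 32.4 and 14.4 CPM in P3 tumours, against 172 and 169 CPM in P0 tumours. The P3 libraries differed from each other by more than 2-fold, and both lay far below P0, with a log2 fold change of -2.87 ± 0.37 (adjusted p = 0.00455). Lrrc32 had 5.70 and 3.94 CPM in P3 and 8.08 and 8.35 CPM in P0. The groups did not overlap, but the fold change of -0.77 missed the threshold (95% interval -1.39 to -0.15, adjusted p = 0.0574). Nrp1, a co-receptor, had 20.0 and 9.16 CPM in P3 tumours and 27.5 and 33.2 CPM in P0 tumours (log2 fold change -1.06, 95% interval -1.95 to -0.16, adjusted p = 0.065). Itgae, the alpha chain of CD103, had 8.88 and 7.36 CPM in P3 and 10.2 and 11.5 CPM in P0 (-0.42, 95% interval -0.90 to 0.06, adjusted p = 0.136). Tnfrsf18 was the member whose groups overlapped, with 18.5 and 17.8 CPM in P3 and 18.9 and 15.9 CPM in P0. Its log2 fold change of 0.06 had a 95% interval of -0.31 to 0.44 (adjusted p = 0.757).

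The cytokine gene Il10 was near the detection limit, with 1 and 3 reads in P3 and 3 and 7 reads in P0, and was left out by the filter on low counts. The ratio of P3 to P0 reads, scaled for library size, was 0.408 with a 95% counting interval of 0.0933 to 1.41, which covers counting error only. Of the 8 tested members, 7 had groups that did not overlap, beside 76.1% of all genes tested. Without either P0 library edgeR called no gene of the table: the adjusted p of the 4 members was 0.128 to 0.163 without P0 replicate 1 and 0.0987 to 0.123 without P0 replicate 2, with 5571 and 5768 genes at an unadjusted p under 0.05. DESeq2 then still called Ikzf2 and Gpr83 in both cases, and Ikzf4 as well without P0 replicate 2. Over the fits with 1 library left out, by edgeR or DESeq2, Lrrc32 ran from -1.05 to -0.53 on the log2 scale. Nrp1 ran from -1.72 to -0.61 and Itgae from -0.55 to -0.29. With all libraries, limma-voom called Lrrc32 (adjusted p = 0.0421) and Nrp1 (0.0396) lower, and DESeq2 called Nrp1 (0.012).

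**Figure D1:**
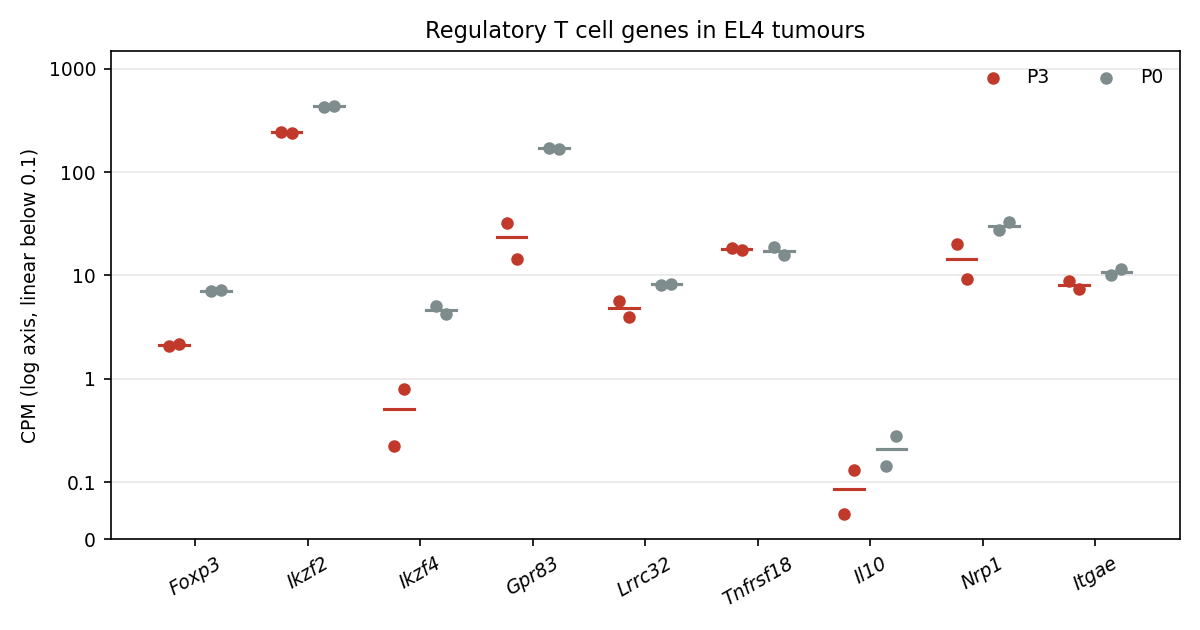
Level of each member (TMM-scaled CPM, log axis that is linear below 0.1) in the P3 and P0 tumour libraries. Points are libraries and bars are means of 2; Foxp3, Ikzf2, Ikzf4 and Gpr83 lie lower in P3, and the points of Tnfrsf18 overlap.

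Markers of other cells moved in the same comparison, in which 18.8% of all genes tested were higher and 19.9% lower. Summed levels of the 12 macrophage markers were 366 and 364 CPM in P3, far under the 1389 and 1723 CPM in P0, and 10 were called lower. Dendritic cell markers summed to 47.2 and 48.3 CPM in P3 tumours and to 179 and 205 CPM in P0 tumours (8 of 10 lower), and B cell markers to 64.0 and 69.2 CPM in P3 tumours and 293 and 506 CPM in P0 tumours (9 of 9 lower). Markers of NK and cytotoxic cells summed to 35.5 and 23.7 CPM in P3 libraries and to 147 and 158 CPM in P0 libraries, with 6 of 6 tested genes lower. T cell markers summed to 2134 and 2367 CPM in P3 and 2647 and 2422 CPM in P0, with 2 of 12 higher and 4 lower. Since EL4 is a T-cell lymphoma line, this sum does not tell tumour cells from other T cells. Its genes also moved in opposite directions. Cd4 stood at 421 and 405 CPM (P0) and at 575 and 663 CPM (P3). Cd8a dropped from 16.6 and 20.5 CPM (P0) to 0.177 and 0.0877 CPM (P3). Cd8b1 dropped likewise, from 6.10 and 10.1 CPM to 0.0442 and 0 CPM. Neutrophil markers ran the other way, at 15.9 and 64.5 CPM in P3 libraries and 4.63 and 5.40 CPM in P0 libraries (4 of 7 higher). For endothelial cells 1 of 9 markers was lower (231 and 159 CPM in P3, 245 and 245 CPM in P0), for platelets 1 of 3 was higher and 2 lower (12.01 and 11.2 CPM in P3, 14.1 and 14.9 CPM in P0), and for fibroblasts 1 of 8 was higher and 3 lower (1695 and 1052 CPM in P3, 2944 and 3008 CPM in P0). No marker of these lists was at 0 in a whole EL4 group. The part of these cells in the members' differences was not tested.

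**Figure D2:**
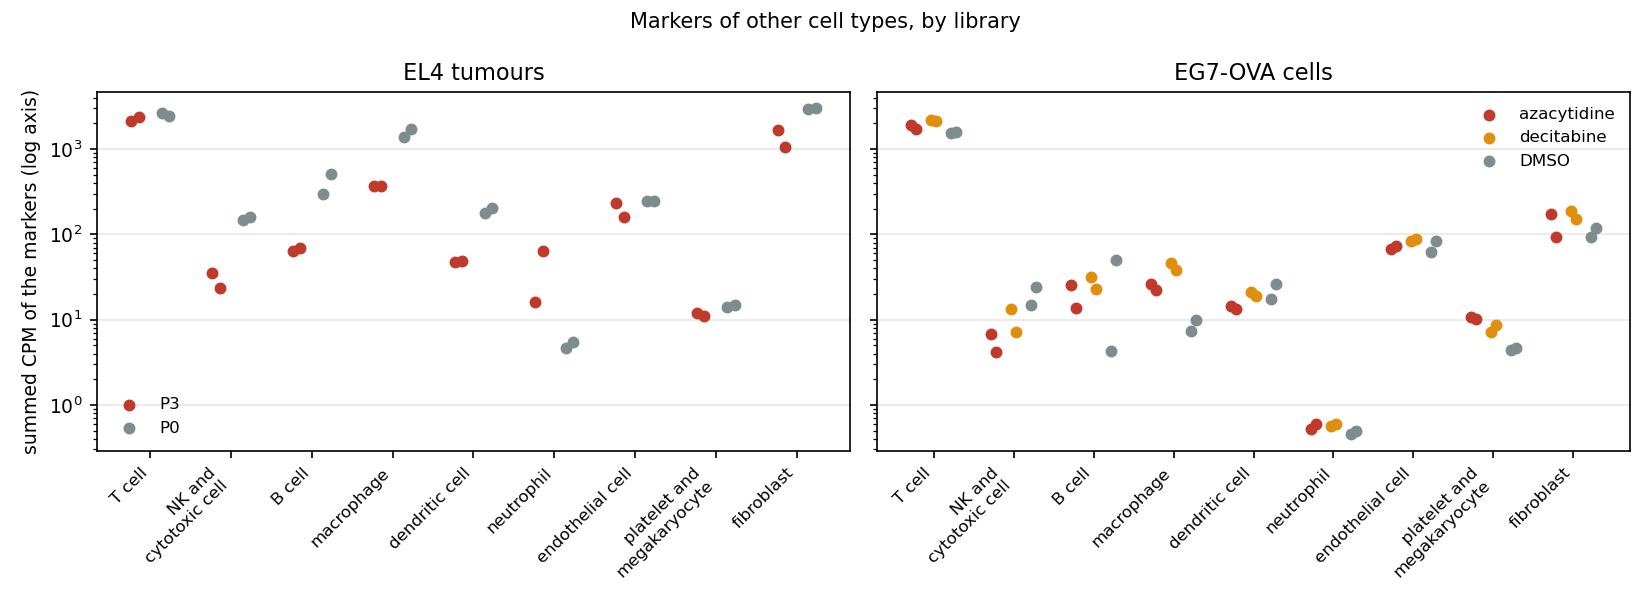
Summed level (TMM-scaled CPM, log axis) of the markers of 9 cell types in each library. Macrophage, dendritic, B and NK cell sums are lower in P3 than in P0 tumours, and the B cell sums of the DMSO libraries are 4.27 and 49.6 CPM.

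Genes that act with the members were counted from 5 lists. Over all genes tested in P3 against P0, 18.8% were higher and 19.9% lower. The list counts were not tested against these shares. Of 20 factors that control FOXP3 or work beside it, 5 were higher and 6 lower in P3 tumours. Maf, a factor of cytokine-producing T cells, averaged 106 CPM in P3 and 22.9 CPM in P0 (log2 fold change 2.21 ± 0.14, adjusted p = 0.000933). Bach2, which restrains effector differentiation, averaged 21.9 CPM in P3 and 83.9 CPM in P0 (-1.94 ± 0.16, adjusted p = 0.00169). Satb1 averaged 9.77 CPM in P3 and 413 CPM in P0 (-5.40 ± 0.56, adjusted p = 0.00281), the largest change of the 3.

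The interleukin-2 receptor and STAT5 list, which holds the growth signal of regulatory T cells, had 5 of 9 tested genes lower and 2 higher. Il2rb, the receptor's beta chain, had 3.18 and 4.91 CPM in P3 and 90.9 and 94.2 CPM in P0 (log2 fold change -4.51 ± 0.21, adjusted p = 0.000536). Cish and Socs1, feedback inhibitors induced by STAT5, were also lower (-3.45 ± 0.33 and -0.99 ± 0.19). Il2ra, the alpha chain CD25, had 1.59 and 5.43 CPM in P3 and 14.4 and 12.8 CPM in P0; it was chosen after its values were seen. In the list of latent TGF-beta and its receptors 3 of 14 genes were higher and 2 lower. The signal transducer Smad2 (0.69 ± 0.08) and the protease gene Furin (0.78 ± 0.13) were higher, and Itgb8, part of an integrin that releases active TGF-beta from GARP, was lower (-2.39 ± 0.41, adjusted p = 0.00992).

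Ligands, receptors and partners of the members gave 2 higher and 5 lower of 12. The beta-7 chain that pairs with CD103, Itgb7, had 511 and 548 CPM in P3 and 153 and 159 CPM in P0 (1.77 ± 0.10, adjusted p = 0.000802), while Itgae itself did not pass. Il10ra, the ligand-binding chain of the interleukin-10 receptor, averaged 6.47 CPM in P3 and 37.4 CPM in P0 (-2.53 ± 0.23, adjusted p = 0.00222). Sema4a, a semaphorin described as a ligand of neuropilin-1, was higher (0.89 ± 0.10, adjusted p = 0.00357). Other surface and effector genes of regulatory T cells counted 2 higher and 10 lower of 20, with a median log2 fold change of -1.28. Entpd1, the ectonucleotidase CD39, averaged 14.0 CPM in P3 and 50.9 CPM in P0 (-1.86 ± 0.12, adjusted p = 0.00103), and Cd83 averaged 2.01 CPM in P3 and 21.5 CPM in P0 (-3.42 ± 0.45, adjusted p = 0.00488). The chemokine receptor gene Ccr4 went the other way, with 122 CPM in P3 and 20.1 CPM in P0 (2.61 ± 0.14, adjusted p = 0.000616). Without either P0 library edgeR called none of these list genes either, and without P3 replicate 2 the TGF-beta list had 10 calls.

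**Figure D3:**
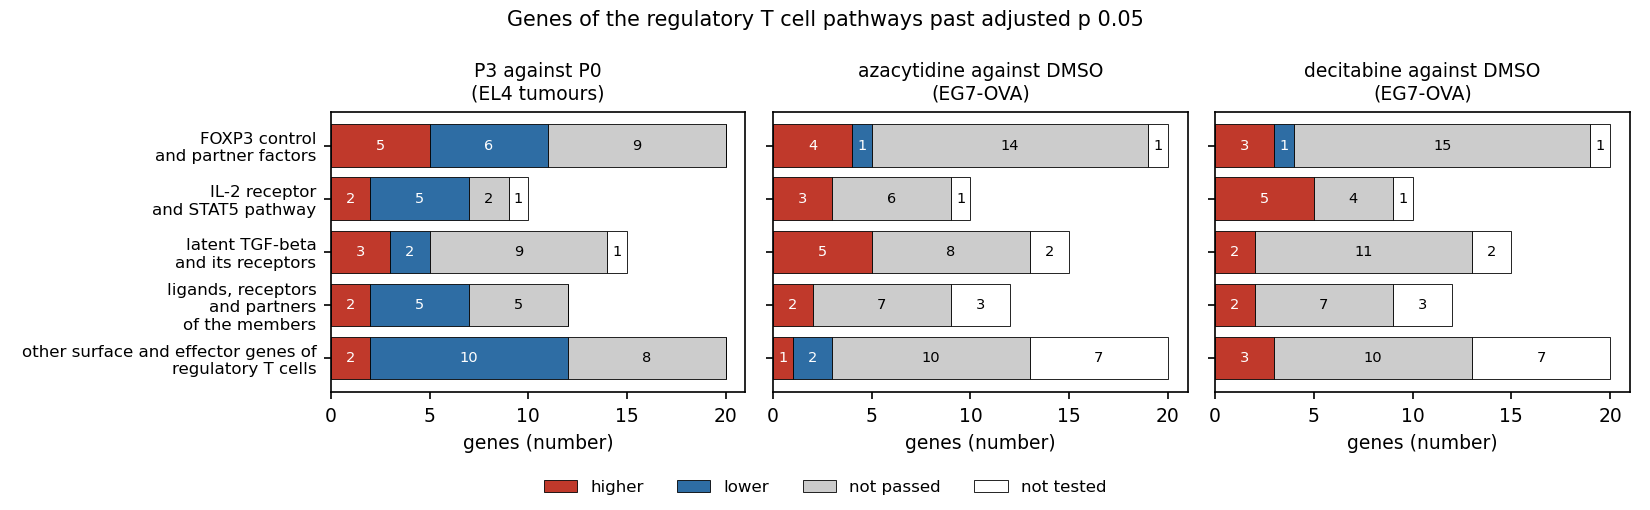
Number of genes in each of 5 related lists that were higher, lower, did not pass or were not tested, for P3 against P0, azacytidine against DMSO and decitabine against DMSO. In P3 tumours 10 of 20 other surface and effector genes were lower, beside 19.9% of all genes tested. Most list genes did not pass in EG7-OVA cells, where 20.3% of all genes tested were called with azacytidine and 16.7% with decitabine.

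In cultured EG7-OVA cells both drugs raised Lrrc32 and Il10, and azacytidine lowered Ikzf2. Azacytidine called 2 of 9 members higher and 1 lower, beside 13.6% higher and 6.7% lower among 19123 genes tested (20.3% in either direction). Decitabine called 2 of 9 higher and 0 lower, beside 12.4% and 4.3% (16.7% in either direction). The median log2 fold change of the 9 members was 0.47 with azacytidine and -0.26 with decitabine, and 0.03 and 0.04 over all genes. Both comparisons use the same DMSO libraries and are not independent of each other.

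Lrrc32 showed the largest change of all members. It had 130 and 103 CPM (1989 and 1728 reads) with azacytidine, 26.0 and 63.0 CPM (511 and 1154 reads) with decitabine, and 0.351 and 0.149 CPM (7 and 3 reads) with DMSO. Every treated library was far above both DMSO libraries, and the decitabine libraries differed from each other by more than 2-fold. The log2 fold change was 8.82 ± 0.56 with azacytidine (95% interval 7.57 to 10.08, adjusted p = 1.5e-05) and 7.44 ± 0.56 with decitabine (6.19 to 8.68, adjusted p = 4.54e-05). As ratios of scaled reads these are 463-fold with azacytidine (95% counting interval 251 to 966) and 175-fold with decitabine (95.2 to 367). Both counting intervals leave out the spread between libraries. In order of log2 fold change Lrrc32 ranked 109 of 19123 genes with azacytidine and 171 with decitabine. Without DMSO replicate 1 the log2 fold change was 9.52 with azacytidine and 8.14 with decitabine, and without DMSO replicate 2 it was 8.30 and 6.91; all 4 passed the test.

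Il10 was almost silent in DMSO, with 0 and 3 reads. It had 54 and 30 reads with azacytidine (3.52 and 1.79 CPM) and 36 and 33 reads with decitabine (1.83 and 1.80 CPM). The ratio of scaled reads to DMSO was 34.9 with azacytidine (95% counting interval 11.5 to 172) and 24.2 with decitabine (7.96 to 120). Both intervals cover counting error only. The adjusted p was 0.0023 with azacytidine and 0.0051 with decitabine. Il10 and Lrrc32 were too low in DMSO to pass the filter on low counts. They were tested because of their reads in treated libraries, where they were high. All reads of DMSO fell in replicate 2; without it the adjusted p was 0.000611 and 0.0015, and without DMSO replicate 1 it was 0.00498 and 0.0134.

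Ikzf2, the gene of Helios, had 299 and 366 CPM with azacytidine, 653 and 473 CPM with decitabine, and 635 and 721 CPM with DMSO. Both azacytidine libraries lay below every other EG7-OVA library, while the decitabine and DMSO libraries overlapped. With azacytidine Ikzf2 fell by 1.03 ± 0.20 on the log2 scale (adjusted p = 0.00635), and with decitabine the log2 fold change was -0.27 (95% interval -0.72 to 0.18, adjusted p = 0.422). The azacytidine call was lost without AZA replicate 1 (-0.92, adjusted p = 0.0823), and held without DMSO replicate 1 (-1.14, adjusted p = 0.0071) and without DMSO replicate 2 (-0.98, adjusted p = 0.0104).

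Foxp3 itself was low and did not pass the test with either drug. It had 2.35 and 4.46 CPM with azacytidine, 1.93 and 2.95 CPM with decitabine, and 3.26 and 3.18 CPM with DMSO. The azacytidine libraries spanned the DMSO levels and both decitabine libraries lay just below them. The log2 fold change was 0.08 with azacytidine (95% interval -0.86 to 1.03, adjusted p = 0.921) and -0.40 with decitabine (-1.35 to 0.55, adjusted p = 0.589). These intervals do not exclude a 2-fold rise with azacytidine or a 2-fold fall with decitabine. Without AZA replicate 2 the azacytidine value was -0.49 (adjusted p = 0.558).

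The levels of Ikzf4 and Tnfrsf18 in every treated library lay above those in both DMSO libraries, but neither gene passed the test. Ikzf4 had 2.28 and 2.38 CPM with azacytidine, 1.83 and 2.18 CPM with decitabine and 0.753 and 1.10 CPM with DMSO (adjusted p = 0.0532 with azacytidine and 0.108 with decitabine). Tnfrsf18 had 10.1 and 6.07 CPM with azacytidine, 6.16 and 8.13 CPM with decitabine and 3.81 and 4.23 CPM with DMSO (adjusted p = 0.0747 and 0.15). Itgae and Gpr83 lay at the low end with azacytidine. Itgae had 1.83 and 1.85 CPM with azacytidine, 3.87 and 2.46 CPM with decitabine and 3.76 and 4.98 CPM with DMSO (adjusted p = 0.0512 and 0.47), and median-ratio scaling moved the azacytidine value to an adjusted p of 0.0484. Gpr83 had 2.09 and 1.31 CPM with azacytidine, 2.39 and 4.58 CPM with decitabine and 2.51 and 5.82 CPM with DMSO (adjusted p = 0.112 and 0.787). Without DMSO replicate 1 its azacytidine value of -1.80 passed (adjusted p = 0.0312), as did -1.29 when no filter on low counts was used (0.0446), and with decitabine its sign depended on single libraries.

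Nrp1 could not be read against DMSO, since its DMSO libraries held 0 and 33 reads. It had 26 and 10 reads with azacytidine and 12 and 9 reads with decitabine. All 33 DMSO reads came from replicate 2, the library with the higher Satb1 and B cell marker levels. Without DMSO replicate 2 the call was higher with both drugs (adjusted p = 0.0121 with azacytidine and 0.0408 with decitabine, against 0 reads in the remaining library), and without DMSO replicate 1 the azacytidine value was -0.55 (adjusted p = 0.667). The groups of 7 of 9 members did not overlap with azacytidine, beside 61.1% of all genes, and those of 5 of 9 with decitabine, beside 58.8%.

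**Figure D4:**
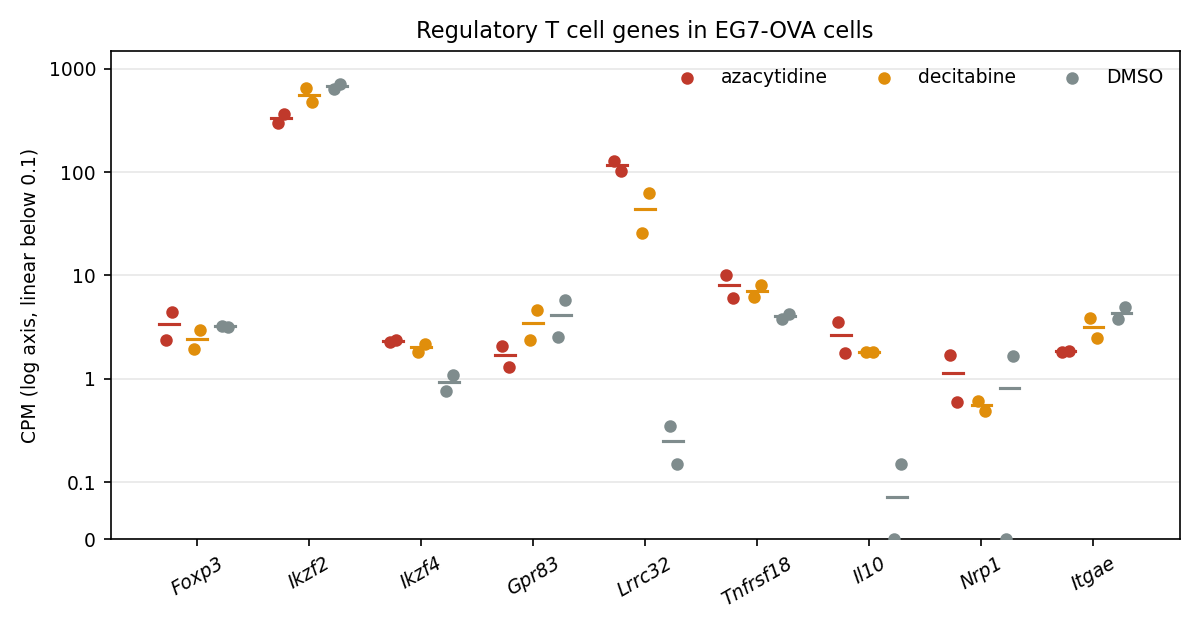
Level of each member (TMM-scaled CPM, log axis that is linear below 0.1) in EG7-OVA libraries given azacytidine, decitabine or DMSO. Points are libraries and bars are means of 2; Lrrc32 and Il10 are higher in all 4 treated libraries, and the DMSO points of Nrp1 lie at 0 and 1.64 CPM.

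Marker values of other cell types were low in these cultures, and some moved with treatment. Of all genes tested, 13.6% were higher and 6.7% lower with azacytidine, and 12.4% and 4.3% with decitabine. Macrophage markers summed to 26.0 and 22.1 CPM with azacytidine, 45.9 and 38.5 CPM with decitabine and 7.38 and 9.90 CPM with DMSO, with 5 of 7 tested genes higher with each drug. The macrophage complement genes C1qa, C1qb and C1qc had no read in any EG7-OVA library. Platelet markers summed to 10.7 and 10.1 CPM with azacytidine, 7.18 and 8.68 CPM with decitabine and 4.37 and 4.63 CPM with DMSO; Ppbp, Gp1bb and Treml1 had no read in any EG7-OVA library. Endothelial markers summed to 66.6 and 72.1 CPM with azacytidine, 82.8 and 89.2 CPM with decitabine and 62.6 and 84.4 CPM with DMSO, and Kdr and Emcn had no read. B cell markers summed to 25.2 and 13.8 CPM with azacytidine, 31.4 and 23.1 CPM with decitabine and 4.27 and 49.6 CPM with DMSO, with 0 of 7 called. Fibroblast markers, with Col3a1 and Dcn at 0 throughout, had 3 of 5 tested genes higher with each drug. Of the endothelial markers 1 of 4 tested was higher with each drug, and of the platelet markers 1 of 2 with azacytidine and 0 of 2 with decitabine. T cell markers summed to 1921 and 1709 CPM with azacytidine, 2165 and 2129 CPM with decitabine and 1547 and 1594 CPM with DMSO, with 2 of 10 and 3 of 10 higher. Of 3 tested dendritic cell markers 1 was lower with azacytidine, and 1 was higher and 1 lower with decitabine; of 2 tested NK cell markers 1 was lower with azacytidine and 0 were called with decitabine. No neutrophil marker had enough reads to be tested. The part of other cells in the members' differences was not tested.

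Between the drugs, at their unequal doses, no member passed the test, and edgeR called no gene at all (0% of 19123, with 1218 genes at an unadjusted p under 0.05; DESeq2 called 177 and limma-voom 0). For Lrrc32 both azacytidine libraries lay above both decitabine libraries, with a log2 fold change of 1.39 ± 0.35 (95% interval 0.62 to 2.16, unadjusted p = 0.00244, adjusted p = 0.282). For Ikzf2 both azacytidine libraries lay below both decitabine libraries (-0.76 ± 0.20, 95% interval -1.21 to -0.31, unadjusted p = 0.00378, adjusted p = 0.344). DESeq2 called Ikzf2 (adjusted p = 0.0256), and without a filter on low counts edgeR called Lrrc32 (1.53e-07) and Ikzf2 (0.032). Il10 gave 0.54 (95% interval -0.75 to 1.83, adjusted p = 0.975) and Foxp3 0.48 (adjusted p = 0.968). The groups of 5 members did not overlap, beside 35% of all genes; these intervals do not show that the drugs act alike.

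**Figure D5:**
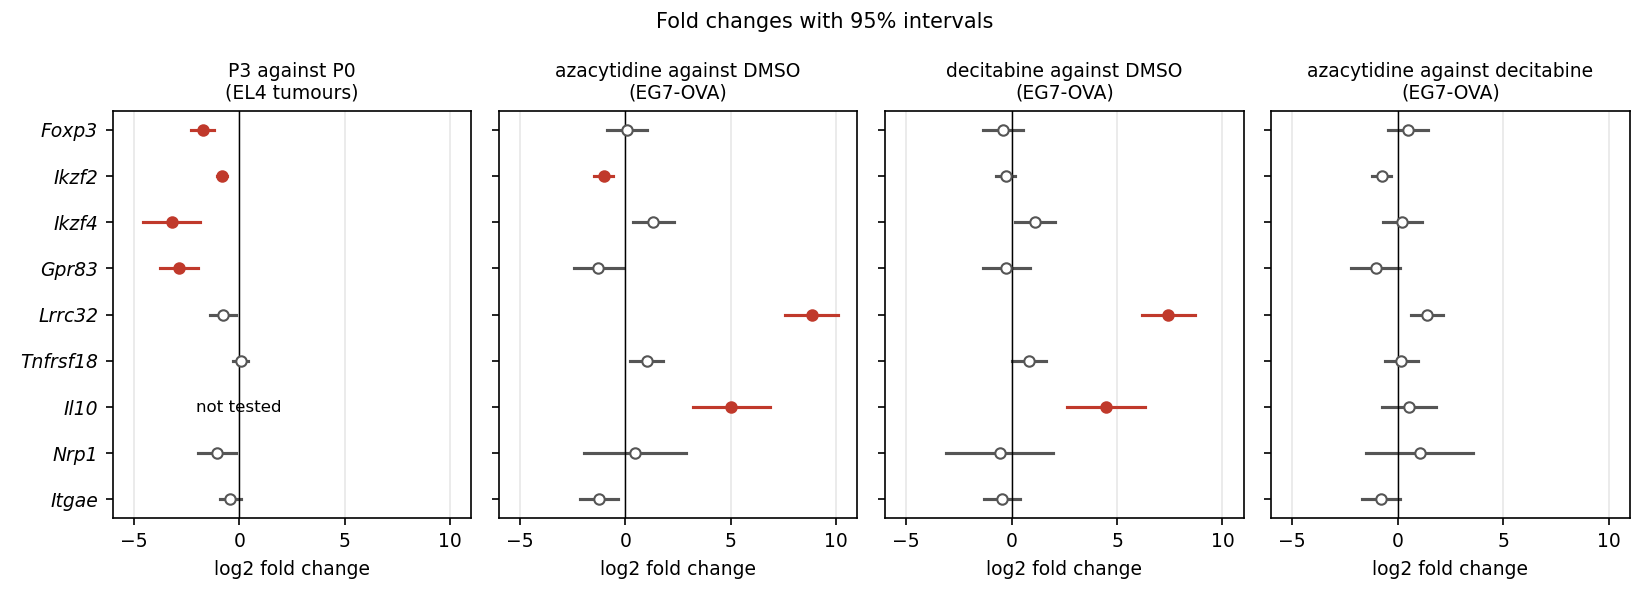
Log2 fold changes of the members with 95% intervals from edgeR for P3 against P0, azacytidine against DMSO, decitabine against DMSO and azacytidine against decitabine. Filled red points passed an adjusted p of 0.05 and open points did not; Il10 has no value in tumours, and the Lrrc32 values of 8.82 and 7.44 stand out in the drug comparisons.

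In the related lists most EG7-OVA genes did not pass. Beside the list counts, 13.6% of all genes tested were higher and 6.7% lower with azacytidine, and 12.4% and 4.3% with decitabine. The list counts were not tested against these shares. For latent TGF-beta and its receptors, the pathway in which GARP acts, azacytidine called 5 of 13 genes higher and decitabine 2 of 13, and none was lower with either drug. Smad3, a transducer of TGF-beta signals, had 230 and 159 CPM with azacytidine, 147 and 150 CPM with decitabine and 91.9 and 98.0 CPM with DMSO. It passed with both drugs (log2 fold change 1.03 ± 0.19, adjusted p = 0.00496, and 0.65 ± 0.19, adjusted p = 0.0458). Ltbp1, which stores latent TGF-beta in the matrix, had 25 reads with azacytidine and 12 with decitabine against 1 with DMSO, a scaled ratio of 31.1 with azacytidine (counting interval 5.10 to 1278, adjusted p = 0.0117) and of 12.6 with decitabine (1.87 to 541, adjusted p = 0.0725). Tgfb3 was higher with azacytidine (1.68 ± 0.46, adjusted p = 0.0278) and the integrin gene Itgav with decitabine (0.51 ± 0.16, adjusted p = 0.0488). The azacytidine count was 0 without AZA replicate 1 and 1 without AZA replicate 2 or without DMSO replicate 1, and the decitabine count was 0 under median-ratio scaling and without DMSO replicate 1 or DAC replicate 2, and 1 without either other library.

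The interleukin-2 list had 3 of 9 genes higher with azacytidine and 5 of 9 with decitabine. Socs1 averaged 65.4 CPM with azacytidine, 60.1 CPM with decitabine and 25.7 CPM with DMSO (adjusted p = 0.00476 and 0.00895). Cish had 75 reads with azacytidine, 57 with decitabine and 2 with DMSO (adjusted p = 0.00829 and 0.0199). Il2ra, which encodes CD25, had 0.848 and 0.952 CPM with azacytidine, 6.92 and 2.40 CPM with decitabine and 1.15 and 0.995 CPM with DMSO, and passed with decitabine (2.11 ± 0.53, adjusted p = 0.0218). The counts fell to 0 for azacytidine without AZA replicate 1 and to 1 for decitabine without DMSO replicate 1, with 2 or 3 left without any other of its libraries. Of the FOXP3 control factors, 4 of 19 were higher and 1 lower with azacytidine, and 3 higher and 1 lower with decitabine. Foxo3, a forkhead activator of Foxp3, averaged 210 CPM with azacytidine, 228 CPM with decitabine and 109 CPM with DMSO and passed with both (adjusted p = 0.00579 and 0.00379). Nr4a1, an early response gene of T cell receptor signalling, was lower with azacytidine (-1.38 ± 0.36, adjusted p = 0.0221). Irf4, a factor of effector regulatory T cells, averaged 14.9 CPM with decitabine and 3.02 CPM with DMSO (2.30 ± 0.48, adjusted p = 0.00954). No FOXP3 control factor was called with azacytidine without AZA replicate 1, and 2 were without DMSO replicate 1; with decitabine 2 were called without DAC replicate 1.

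Among partners of the members, 2 of 9 were higher with each drug and none lower. Itgb7 had 28.9 and 15.6 CPM with azacytidine, 38.6 and 24.9 CPM with decitabine and 6.32 and 8.36 CPM with DMSO (1.60 ± 0.34, adjusted p = 0.00898, and 2.11 ± 0.34, adjusted p = 0.00277). Its partner chain Itgae showed no call in either comparison. Cdh1, which encodes the CD103 ligand E-cadherin, had 5 and 16 reads with azacytidine and 6 and 29 with decitabine against 0 and 0 with DMSO (adjusted p = 0.0289 and 0.0201); the 95% counting interval of the scaled ratio begins at 6.49 with azacytidine and at 9.48 with decitabine. Other surface and effector genes gave 1 higher and 2 lower of 13 with azacytidine and 3 higher and 0 lower with decitabine. Izumo1r, the folate receptor family member known on regulatory T cells, had 1.96 and 1.84 CPM with azacytidine, 6.52 and 4.53 CPM with decitabine and 9.13 and 10.2 CPM with DMSO, and fell with azacytidine (-2.34 ± 0.35, adjusted p = 0.00152). Tigit, an inhibitory receptor gene, also fell with azacytidine (-1.58 ± 0.32, adjusted p = 0.00719). Icos, a costimulatory receptor gene, was higher with both drugs (adjusted p = 0.0491 with azacytidine and 0.0155 with decitabine), and Ccr4 (1.02 ± 0.18) and Il1rl1, which encodes the interleukin-33 receptor (2.08 ± 0.38), were higher with decitabine. Leaving out DMSO replicate 2 gave 5 calls in this list with azacytidine and 6 with decitabine. Without AZA replicate 1 no partner gene was called with azacytidine, and without AZA replicate 2 the azacytidine counts were 1 in both lists; without DMSO replicate 1 or DAC replicate 2 the decitabine count of partners was 1.

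Levels were set per kilobase of annotated exon to compare genes. Ikzf2 had the highest mean level per kilobase in every group, at 20.9 CPM per kb in P3, 37.4 in P0, 28.6 with azacytidine, 48.5 with decitabine and 58.4 with DMSO. Lrrc32 was second with azacytidine (24.8 ± 4.06 CPM per kb, SD, n = 2) and decitabine (9.49 ± 5.57) and last with DMSO (0.0534 ± 0.0305). Differences smaller than the summed SDs separated Ikzf2 from Lrrc32 with azacytidine, Lrrc32 from Tnfrsf18 (4.69 ± 0.914) with decitabine, and Lrrc32 from Il10 (0.0570 ± 0.0806) and Nrp1 (0.0839 ± 0.119) with DMSO, so these neighbours in the order were not told apart. Gpr83 was second in P0 (33.5 CPM per kb) and came after Ikzf2 and Tnfrsf18 in P3 (4.59), and Il10 was last in both tumour groups. In P3, however, Il10 (0.0670 ± 0.0471) and Ikzf4 (0.0842 ± 0.0670) differed by less than their summed SDs and were not told apart. From high to low, the order in P0 was Ikzf2, Gpr83, Tnfrsf18, Nrp1, Itgae, Lrrc32, Foxp3, Ikzf4 and Il10, and with DMSO it was Ikzf2, Tnfrsf18, Itgae, Gpr83, Foxp3, Ikzf4, Nrp1, Il10 and Lrrc32. With DMSO Gpr83 (0.818 ± 0.460 CPM per kb) differed from Itgae (0.954 ± 0.187) and from Foxp3 (0.704 ± 0.0119) by less than the summed SDs. Itgae and Foxp3 differed from each other by more than theirs. With DMSO, Ikzf4 (0.154 ± 0.0403), Nrp1 and Il10 also differed from each other by less than their summed SDs and were not told apart. Of the 9 members, 7 averaged 1 CPM or more in P3, 8 in P0, 9 with azacytidine, 8 with decitabine and 5 with DMSO.

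On mm10, Lrrc32 lies at chr7:98489283-98502181 and Il10 at chr1:131019845-131024974, Foxp3 at chrX:7573644-7595245, Ikzf2 at chr1:69531214-69687245 and Ikzf4 at chr10:128630843-128645991. Gpr83 lies at chr9:14860210-14870789, Tnfrsf18 at chr4:156026164-156028895, Nrp1 at chr8:128358604-128503363 and Itgae at chr11:73090583-73147446, with Ikzf2 and Ikzf4 on the minus strand and the others on the plus strand. The nearest protein-coding genes, chosen after values were seen, were read beside them. Next to Lrrc32, Gucy2d at 11804 bases had 2 and 11 reads with azacytidine, 2 and 6 with decitabine and 0 and 3 with DMSO and was not tested, and Emsy at 84956 bases did not pass with either drug (0.10 and 0.01). Next to Il10, the cytokine gene Il19 was higher with decitabine (2.21 ± 0.57, adjusted p = 0.0241) and did not pass with azacytidine (1.01 ± 0.60, adjusted p = 0.273), and Mapkapk2 passed with neither drug. Suox, 23903 bases from Ikzf4, was lower in P3 tumours (-1.59 ± 0.25, adjusted p = 0.00731) and higher with azacytidine (2.29 ± 0.31, adjusted p = 0.000843) and decitabine (2.19 ± 0.31, adjusted p = 0.00126). Rps26, the nearer neighbour of Ikzf4 at 4096 bases, passed in none of these comparisons (-0.19 in P3 tumours, -0.01 with azacytidine and -0.11 with decitabine). Of the neighbours of Ikzf2, Spag16 at 139725 bases passed in none (0.43 in P3 tumours, adjusted p = 0.304), and Erbb4 at 423155 bases was lower in P3 tumours (adjusted p = 0.0287) and with azacytidine (adjusted p = 0.0212). Among the remaining neighbours, Tnfrsf4 beside Tnfrsf18, Itgb1 beside Nrp1 and Mapkapk2 were lower in P3 tumours, Mre11a beside Gpr83 was lower with both drugs and Izumo1r, its other neighbour, with azacytidine. Usp27x, Ttll10, Pard3, Ncbp3 and P2rx5 passed in no comparison in which they were tested, and Cacna1f was not tested. Foxp3 shares exon bases with Flicr on its own strand (853 bases). On the opposite strand it shares them with Ccdc22 (590 bases), Gm36995 (373) and Ppp1r3f (266). Ccdc22 had 1088 reads over the EL4 libraries and 0 over the EG7-OVA libraries, and Flicr had 77 and 105. Tnfrsf18 shares 414 bases with the antisense gene Gm16008 and Ikzf2 144 with Gm29114. Nrp1 shares 80 with Mir1903 and Ikzf4 37 with Gm26876. The strand setting of the counting is not given in the sources used here, so the counts of these members may include or lack reads of the overlapping genes.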

How the data were processed

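Total RNA was extracted with Trizol, per the labels' protocols, and the submitters' processing notes name fastp, Trim Galore, STAR, featureCounts and the builds mm10 and GRCh38; tool versions and the strand setting are not given in the sources available. The deposited tables hold raw counts per gene for EL4 tumours. The deposited EG7-OVA table has the form of expected counts, since 145 values in 62 rows are not whole; no source says by which step the authors obtained these, and they were rounded here. None is in a member. NKYS libraries were not used here. Whether duplicate or multimapping reads were counted is likewise not given and could change counts.

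Genes were kept by filterByExpr, scaled by TMM and tested two-sided with glmQLFit and glmQLFTest in edgeR 4.0.16 (R 4.3.3), the 6 EG7-OVA libraries in 1 fit; SE is the log2 fold change over the root of F. DESeq2 1.42.0, limma-voom 3.58.1, other scalings and filters (stricter: 1 CPM in 2 libraries), a replicate block, the compared libraries alone and leaving out each library were alternatives; DESeq2 with a library left out was chosen after seeing the data. Lrrc32, Il10, Cish, Ltbp1 and Cdh1 were too low in DMSO for filterByExpr and were tested because of their reads in treated libraries. Scripts were tested on simulated data with 200 changed genes. EG7-OVA control columns are numbered 1 and 2 where titles say 2 and 3, so they are mapped by group, and replicate names follow the columns. The precision of 2 libraries a group is limited. Counting intervals are exact at 95% and cover counting error only, not the spread between libraries. All members are named. From each related list only some of the genes with the smallest p are named, and others were chosen after their values were seen. The members and lists were chosen with earlier results of these data known. Gene positions are from GENCODE vM21, matched by symbol for all 9 members.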

Additional observations from a re-analysis of the deposited data

How the results depend on the processing

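Groups of 2 libraries set the main limit: leaving 1 out leaves a lone library that is assumed to vary like the others, and at under 10 reads fold changes rest on counting error. Under the other scalings, tests and filters and the replicate block, 260 of the members' values kept direction and side of the threshold, 8 passed newly and 1 reversed, which was Nrp1 with decitabine under limma-voom (1.48). With 1 library left out, by edgeR or DESeq2, 224 were kept, 14 passed newly, 12 were lost and 19 reversed; the cause was not tested. Leave-one-out counts of called genes ran from 0 to 11286 in P3 against P0 (7736 with all libraries), 1675 to 3897 with azacytidine (3883), 1520 to 3290 with decitabine (3198) and 0 to 233 between the drugs (0). The members called ran from 0 to 7 (4), 2 to 4 (3), 2 to 3 (2) and 0 to 2 (0). Between the drugs DESeq2 called 177 genes and 1 member, and no filter 378 genes and 2 members. DESeq2 split the decitabine calls into 2438 higher and 1338 lower, against 2376 and 822 in edgeR.

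Members whose sign depended on 1 library are given as the lowest and highest log2 fold change over the leave-one-out fits of both tools, and the cause was not tested. In P3 against P0, Tnfrsf18 ran from -0.082 (without P0 replicate 2) to 0.18. With azacytidine, Foxp3 ran from -0.49 (without AZA replicate 2) to 0.44, and Nrp1 from -0.55 (without DMSO replicate 1) to 7.36 (without DMSO replicate 2). With decitabine, Gpr83 ran from -0.82 to 0.42 (without DMSO replicate 2) and Nrp1 from -1.60 to 6.32 (without DMSO replicate 2). Between the drugs, Foxp3 ran from -0.066 (without AZA replicate 2) to 0.87, Tnfrsf18 from -0.24 (without AZA replicate 1) to 0.54 and Il10, in edgeR, from -0.033 (without AZA replicate 1) to 0.94.

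With the replicate number as a block, 2537 genes were higher and 2953 lower in P3 against P0, 2460 higher and 1149 lower for azacytidine, and 2228 higher and 726 lower for decitabine; the calls of all members were those of the unblocked fits. Among the related lists the block left 4 calls of 7 in the interleukin-2 list for P3 against P0, 3 of 5 in the FOXP3 list for azacytidine and 0 of 2 in the TGF-beta list for decitabine. Deviations of same-numbered libraries correlated at -0.0374 in EL4, -0.257 and -0.191 for azacytidine and decitabine with DMSO and 0.273 between the drugs. With 2 libraries per group these values do not settle whether the numbers pair libraries, positive or negative, and the numbering of the DMSO libraries is itself uncertain, since titles and columns differ.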
